A study of Mus musculus with 12 samples.

Results

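The genes described here are 10 transcription-related response genes of the TC2Ras tumors: the AP-1 subunits Fos, Fosb, Jun, Junb and Jund, the zinc finger factor Egr1, the ATF/CREB factor Atf3, the immediate early response genes Ier2 and Ier3, and Cebpb, which encodes C/EBP beta. They are 10 of the 55401 genes in the count table. They were chosen by measured values, because Cebpb and Ier3 were higher with iAs alone, so the comparison of As300 with Control is given for them as a description with no test. All 10 passed the filter on low counts and entered the fit over 20818 genes.

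AP-1 is a dimer of a Jun protein with a Fos, Jun or ATF partner, and it binds the palindromic site TGACTCA. The genes of its inducible subunits, with Egr1, Ier2 and Ier3, are immediate early genes: growth factors and stress switch them on through MAP kinases before any new protein is made, and their mRNAs are short-lived. C/EBP beta is a basic leucine zipper factor of macrophage activation, the acute phase response and early adipogenesis, and arsenite is a classical activator of the stress kinases JNK and p38.

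The data were gene counts from 12 tumors, 3 in each of 4 groups. TC2Ras is a Ras-driven mouse prostate cancer line, and 125000 cells were implanted under the skin of both flanks. Control tumors held TC2Ras cells alone (the labels call them Control1), and ASC tumors also held 1% adipose-derived stromal cells (ASC) from male mice. As300 tumors (A300 in the labels) held TC2Ras cells in mice given 300 ppb inorganic arsenic (iAs) in their water, and ASC_As300 tumors (ASC300) had both. All mice, untreated ones included, were put on a low-arsenic AIN-76A diet and purified water beforehand, and the tumors were taken at day 21 with the left and right flank of a mouse combined. The strain and age of the recipient mice are not given in the sources used here, and a single line and a single ASC source carry each arm.

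Library totals ran from 39157647 to 55168642 counts. The labels name the cell type as adipose-derived stromal cells, while the libraries are of whole tumors. Stromal markers such as Col1a1 and Pdgfra summed to 3716 to 6252 counts per 1000000 (CPM) over the tumors, and 7 epithelial markers (keratins, Epcam, Cdh1) to only 26.9 to 362.5, with Krt5 at 0 in 8 of 12 tumors. Libraries stood apart for tissue near the tumor: B cell markers summed to 171.7 CPM in Control replicate 1 against 1.98 to 12.1 in the others, and skeletal muscle markers to 1512 CPM in Control replicate 2 and 1562 in As300 replicate 1. In whole tumors, fewer cells of a type and less RNA per cell cannot be told apart.

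The promoters are shown because 5 of the 8 members with an entry in the RefSeq promoter table (GRCm38.p6) carry TGACG, the core of the cAMP-response site that CREB and ATF factors bind. Windows reach from 250 bases before to 50 bases after the start of each gene, and TGACG on either strand lay in 20.8% of all 32851 windows. Below are the 250 bases before the start of Cebpb (chr2:167688665-167688914, plus strand), Ier3 (chr17:35821463-35821712, plus strand), Junb (chr8:84978749-84978998, minus strand) and Fos (chr12:85473640-85473889, plus strand). They are written 5′ to 3′ on the gene's strand, with TGACG or its reverse complement in capitals.
Cebpb: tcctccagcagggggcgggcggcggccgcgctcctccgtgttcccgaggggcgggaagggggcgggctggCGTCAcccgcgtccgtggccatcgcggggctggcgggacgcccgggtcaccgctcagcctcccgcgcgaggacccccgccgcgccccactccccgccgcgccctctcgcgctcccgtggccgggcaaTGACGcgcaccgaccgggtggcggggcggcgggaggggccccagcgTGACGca
Ier3: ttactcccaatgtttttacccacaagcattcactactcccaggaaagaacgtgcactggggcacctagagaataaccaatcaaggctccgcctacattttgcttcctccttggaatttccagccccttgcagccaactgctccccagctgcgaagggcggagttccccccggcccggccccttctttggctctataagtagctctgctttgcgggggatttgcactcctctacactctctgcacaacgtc
Junb: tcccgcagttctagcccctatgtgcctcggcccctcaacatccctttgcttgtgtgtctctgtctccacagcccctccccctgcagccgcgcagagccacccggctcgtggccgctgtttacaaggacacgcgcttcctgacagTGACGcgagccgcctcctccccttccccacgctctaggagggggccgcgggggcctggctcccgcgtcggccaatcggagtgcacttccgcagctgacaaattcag
Fos: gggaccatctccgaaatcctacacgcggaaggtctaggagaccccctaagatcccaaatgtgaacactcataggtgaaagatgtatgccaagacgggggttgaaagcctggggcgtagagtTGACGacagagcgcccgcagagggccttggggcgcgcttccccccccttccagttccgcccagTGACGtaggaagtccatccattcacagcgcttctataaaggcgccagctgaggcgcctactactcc
Cebpb had 3 matches, starting 180, 53 and 7 bases before the start, Fos had 2 and Junb, Fosb and Atf3 had 1 each, while Ier3, Jun and Jund had none in this window. TGACG is also the first part of the full site TGACGTCA, which lay in 1.79% of all windows and in none of the 8. The AP-1 site TGACTCA (5.2% of all windows) and the CArG box of SRF (1.63%) were in none of the 8 windows either. Sites more than 250 bases before the start were not searched, and Egr1 and Ier2 had no entry, so their promoters were not searched. The EGR site GCGGGGGCG (2.91%) was found in Fosb, and the C/EBP site pattern TTGCNNAA (10.8%) in Jund. The RefSeq start can differ from the annotated start used for transcript lengths, and a match is a description of letters only.

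Per length, the highest of the 10 was Jund, the constitutive Jun subunit that is present in resting cells, at 93.6 ± 21.9 CPM per kilobase of exon (SD over all 12 tumors). Ier3, an early gene that limits apoptosis and feeds back on ERK signalling, followed at 71.5 ± 13.8, and the SDs of the pair overlapped. Junb (41.8 ± 6.77), Ier2 (36.9 ± 6.72) and Jun (29.5 ± 4.99) formed the next step, with each neighbour within the spread. Cebpb (16.6 ± 4.71) and Egr1 (14.9 ± 3.29) again overlapped, though their order varied: Egr1 was above Cebpb in Control (15.5 against 10.1) and below it in As300 (16.0 against 21.6). The lowest were Atf3 (8.52 ± 1.93), Fos (5.75 ± 1.38) and Fosb (0.965 ± 0.25). Fos and Fosb, the most transient of the early genes, had 433 to 983 and 149 to 432 counts a tumor, so that their values carry more counting error than those of Jund, with 5018 to 10753.

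Cebpb (GRCm38, chr2:167688915-167690418, plus strand), a gene with a single exon, had the widest separation between groups. Its CPM was 17.4, 14.1 and 14.3 in the Control tumors, 21.6, 28.9 and 29.0 in ASC, 35.9, 27.8 and 33.6 in As300 and 28.7, 23.5 and 24.8 in ASC_As300. Every tumor with ASC, iAs or both lay above every Control tumor, and the 3 treated groups overlapped one another. Cebpb shares exon positions with Tmem189 on the other strand, which ran from 46.7 to 64.6 CPM, and the strand setting of the counting is not given in the sources used here, so that reads of the pair may not be separable. Tmem189 had log2 fold changes against Control of 0.32 in As300, 0.14 in ASC and 0.27 in ASC_As300.

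Ier3 (chr17:35821684-35822923, plus strand; 2 exons) stood in 3 steps. It was at 60.8, 58.0 and 64.6 CPM in Control, at 75.1, 72.0 and 77.6 in ASC, at 97.5, 107.3 and 86.4 in As300 and at 96.1, 90.9 and 83.6 in ASC_As300. The ASC tumors were above the Control tumors without overlap and below all 6 tumors of mice given iAs, and the 2 iAs groups overlapped.

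**Figure D1:**
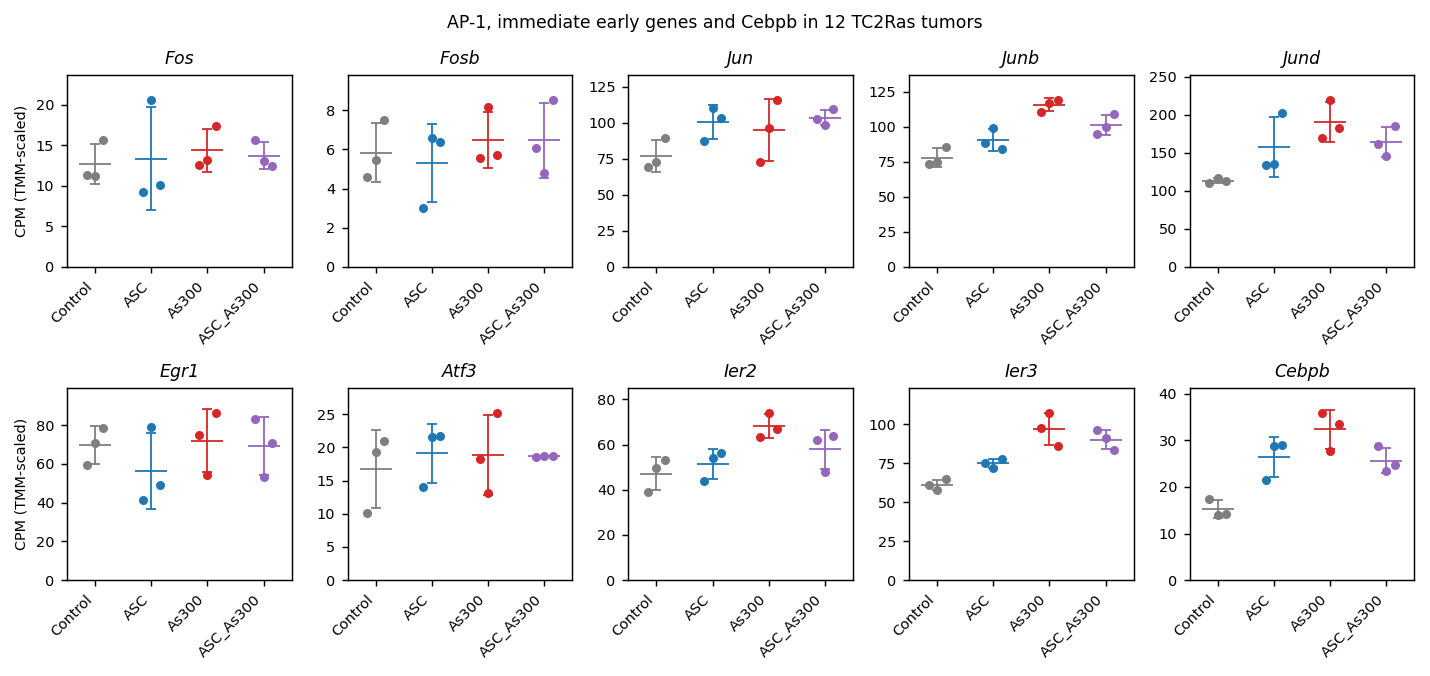
Expression of the 10 genes in each tumor, in TMM-scaled CPM on a linear axis from 0. Each dot is 1 tumor, the horizontal mark is the mean and the bar the SD of 3 tumors; Cebpb and Ier3 lie above Control in all 9 other tumors, while the groups overlap for Fos, Fosb, Egr1 and Atf3.

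Among the Jun subunits, Jund (chr8:70698949-70700616, plus strand; 1 exon) was at 109.5, 116.5 and 113.0 CPM in Control. It was at 133.8, 134.5 and 202.7 in ASC, 169.5, 219.8 and 181.9 in As300 and 161.6, 145.0 and 185.3 in ASC_As300, so that the narrow Control range lay below every other tumor. Junb (chr8:84974484-84978718, minus strand; 1 exon), which can oppose growth driven by Jun, was at 73.3, 74.9 and 85.5 CPM in Control and at 88.4, 99.0 and 83.9 in ASC. Its As300 tumors, at 110.4, 117.1 and 119.4 CPM, were above all others, including ASC_As300 at 94.98, 99.5 and 109.1. Junb overlaps the peroxiredoxin gene Prdx2 on the opposite strand, which itself ran from 241.3 to 389.1 CPM. Jun (chr4:95049034-95052222, minus strand; 1 exon), the main stress-activated subunit, was at 69.0, 72.7 and 89.6 CPM in Control, 87.6, 110.3 and 103.7 in ASC, 72.9, 96.4 and 116.2 in As300 and 102.9, 98.6 and 109.5 in ASC_As300. Only ASC_As300 was clear of Control for this gene, and its antisense neighbour Junos reached no more than 2.38 CPM.

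Ier2 (chr8:84661331-84662852, minus strand; 1 exon), an early gene whose product acts in the nucleus, was at 39.04, 49.4 and 53.0 CPM in Control and at 63.6, 74.0 and 67.1 in As300. ASC (43.9, 54.2 and 56.1 CPM) and ASC_As300 (61.8, 48.1 and 63.8) overlapped Control. Fos (chr12:85473890-85477273) ranged from 9.23 to 20.6 CPM, and both ends lay in the ASC group. Fosb (chr7:19302696-19310051) ranged from 3.02 to 8.55 CPM, Egr1 (chr18:34859823-34864984) from 41.3 to 86.3 and Atf3 (chr1:191170296-191218039), which is induced by cell stress, from 10.1 to 25.2. For these 4 genes no group was clear of any other.

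As300 tumors were compared with Control tumors for the effect of iAs without added ASC, the comparison that chose the genes. The fitted log2 fold change was 1.09 for Cebpb, 0.75 for Jund, 0.67 for Ier3, 0.57 for Junb, 0.53 for Ier2 and 0.30 for Jun. It was 0.18 or less for Fos, Fosb, Atf3 and Egr1. All 10 were higher in As300 (8 after a correction for GC content), with a median log2 fold change of 0.42 beside -0.03 over all genes tested, and 5 members (Cebpb, Ier3, Jund, Junb and Ier2) did not overlap with Control. In this comparison 14.5% of all genes were higher without overlap and 1.06% were called, that is, passed an adjusted p of 0.05 and a 1.5-fold change in edgeR. Nothing is read from these counts, since the comparison made the choice. Neural markers moved with this comparison, from 45.2 to 68.3 CPM in sum in Control to 97.3 to 138.7 in As300, with 2 of 6 called higher. Their part in the values of the members was not tested.

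ASC tumors were compared with Control tumors for the effect of the added stromal cells without iAs. Cebpb rose 1.74-fold, with a log2 fold change of 0.80 (SE 0.15, edgeR adjusted p = 0.0278), and it was the 1 member of 10 called, beside 0.721% of all genes. Jund (log2 fold change 0.47, SE 0.16, adjusted p = 0.189) and Ier3 (0.29, SE 0.09, adjusted p = 0.167) did not overlap with Control but did not pass, and with Cebpb they make 3 of 10 members, beside 9.94% of all genes higher without overlap. Jun and Junb had log2 fold changes of 0.38 and 0.21, with unadjusted p of 0.0277 and 0.0322 and adjusted p of 0.26 and 0.275. Egr1 was the lowest at -0.30 (SE 0.24, adjusted p = 0.591). The median of the 10 was 0.20, beside -0.004 over all genes. These tumors share the Control tumors with the comparison that chose the genes, so the low Control values of Cebpb and Ier3 enter both. The Cebpb call was lost after a correction for GC content (0.53, adjusted p = 0.155), with only the 6 tumors of the 2 groups (0.81, adjusted p = 0.138) and without Control replicate 2 or 3, ASC replicate 2 or 3 or ASC_As300 replicate 3 (adjusted p from 5.15e-05 to 0.155 over the 20 alternatives).

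Macrophage and epithelial markers moved with Cebpb in this comparison. The 8 markers summed to 1220 to 1707 CPM in ASC tumors and 828.4 to 1147 in Control, and 3 of 8, the complement genes C1qa, C1qb and C1qc, were called higher. In As300 the sum was 1168 to 1175 CPM and in ASC_As300 1303 to 1537, so both of these groups were above Control too, with 3 of 8 called in the latter and, in As300, 4 at an unadjusted p under 0.05 and none called by edgeR or DESeq2. None of the 8 was at 0 in any tumor. The 7 epithelial markers summed to 66.2 to 362.5 CPM in Control. This sum was lower without overlap in ASC (32.1 to 48.8) and ASC_As300 (26.9 to 41.8), but not in As300 (96.6 to 120.2). It was mostly Krt8 (24.1 to 336.9 CPM), with Krt18 at up to 19.7 and each other marker at no more than 2.96. By gene, 2 of 7 were lower without overlap in ASC and 1 of 7 in ASC_As300, where 3 were higher than Control. The share of all genes lower without overlap was not computed, for these or for the adipocyte markers below. In As300 2 of 7 were higher than Control, 1 of them without overlap, and the median log2 fold change was -0.59. Of the 7 epithelial markers, edgeR called 1 lower in ASC_As300 and none in ASC (2 at an unadjusted p under 0.05). DESeq2 called Krt8 lower in both, by -2.26 in ASC and -2.51 in ASC_As300. Adipocyte markers (6 of 6 below Control without overlap in As300 and in ASC_As300) summed to 164.6 to 361.8 CPM in Control, 49.5 to 85.4 in As300, 32.1 to 65.9 in ASC_As300 and 46.5 to 745.3 in ASC. The part of these cells in the Cebpb values was not tested.

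ASC_As300 tumors were compared with Control tumors for both exposures together. Cebpb rose 1.68-fold (log2 fold change 0.75, SE 0.15, edgeR adjusted p = 0.0336), again the 1 member called of 10, beside 0.807% of all genes. Ier3 had the smallest p of the members (log2 fold change 0.56, SE 0.09, adjusted p = 0.00871), but at 1.48-fold it stayed under the 1.5-fold limit. Without Control replicate 3 or ASC_As300 replicate 3 it passed both limits (0.62 in each, adjusted p = 0.0227 and 0.0202). Junb (0.38, adjusted p = 0.0727), Jund (0.54, adjusted p = 0.144) and Jun (0.43, adjusted p = 0.227) did not pass. With Cebpb and Ier3 they make 5 of 10 members that were higher without overlap, beside 13.5% of all genes, and the median was 0.34 beside -0.02 over all genes. The Control tumors are again those of the choosing comparison. With the replicate number as a block no member was called (Cebpb 0.75, adjusted p = 0.0548, while the 20 alternatives spanned 0.000191 to 0.191), and the Cebpb call was also lost after the GC correction (0.52, adjusted p = 0.191), without Control replicate 2 or 3, As300 replicate 3, or any 1 of the ASC_As300 tumors.

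**Figure D2:**
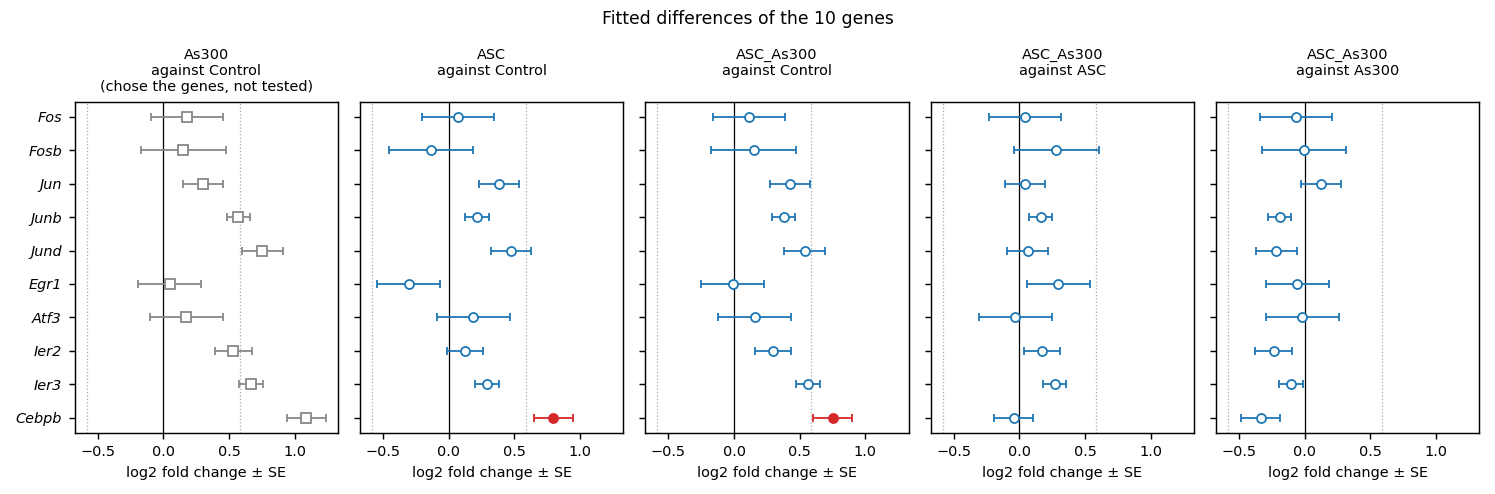
Fitted log2 fold change of each gene with its standard error in 5 comparisons, from edgeR over all 12 tumors. Filled red circles passed the test and the 1.5-fold limit (dotted lines), open blue circles did not, and grey squares mark the comparison that chose the genes. Cebpb passed in ASC and in ASC_As300 against Control, and no gene passed in the 2 comparisons on the right.

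The comparison of ASC_As300 with ASC asks what iAs did when ASC were present, and it uses none of the tumors that chose the genes. No member was called by edgeR, nor was any of the 20818 genes (0% called, 669 at an unadjusted p under 0.05). DESeq2 called 10 genes and no member. Ier3 was higher in all 3 ASC_As300 tumors than in any ASC tumor, by 1.2-fold (log2 fold change 0.27, SE 0.09, unadjusted p = 0.011, adjusted p = 1). It was the 1 member of 10 with no overlap and the only 1 at an unadjusted p under 0.05, where 4.17% of all genes were higher without overlap. Cebpb showed no such step, at -0.04 (SE 0.15), and the others lay between -0.03 for Atf3 and 0.29 for Egr1. The median of the 10 was 0.11, beside -0.01 over all genes. Whether the iAs difference of Ier3 or Cebpb itself depends on ASC was not tested, since that term contains the choosing comparison.

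ASC_As300 was compared with As300 for the effect of ASC under iAs, with As300 tumors that took part in the choice. No member was called by edgeR or by DESeq2, beside 0.855% of all genes by edgeR, and 1 had an unadjusted p under 0.05. That member was Cebpb, lower in ASC_As300 by a log2 fold change of -0.34 (SE 0.15, unadjusted p = 0.0418, adjusted p = 0.478) with overlapping tumors. Junb was lower in all 3 ASC_As300 tumors than in any As300 tumor (-0.19, SE 0.09, adjusted p = 0.502). Jun was the 1 member higher in ASC_As300 (0.12), and no member was higher without overlap, where 11.3% of all genes were. The share of all genes lower without overlap was not computed. The median was -0.09 beside 0.0002 over all genes.

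The base composition of the transcripts moved with the groups. Over the 803 tested genes with a GC content of 60% or more, the median log2 fold change against Control was 0.38 in As300, 0.22 in ASC and 0.21 in ASC_As300, while over the 5804 genes under 45% it was -0.24, -0.15 and -0.17. Several members are among the GC-rich genes: Cebpb and Jund have 67.2% and 67.1% GC, Junb 62.6% and Ier2 60.9%. Ier3 (54.4%), Atf3 (52.2%) and Fos (51.9%) are in the middle of the range. A smooth trend with GC was then fitted in each tumor and taken out. A larger fall of the GC-rich members follows from this correction itself, and base composition as a source of their differences was not tested. In As300 against Control, Cebpb went from 1.09 to 0.59, Jund from 0.75 to 0.24, Junb from 0.57 to 0.19 and Ier2 from 0.53 to 0.20, while Ier3 went from 0.67 to 0.54. Fosb (0.15 to -0.037) and Egr1 (0.05 to -0.17) turned, so that 8 of 10 members stayed higher.

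After the same correction Cebpb was at 0.53 (SE 0.15, edgeR adjusted p = 0.155) in ASC and 0.52 (adjusted p = 0.191) in ASC_As300 against Control, so that neither call remained. Ier3 kept 0.45 (SE 0.09, adjusted p = 0.0439, while all alternatives spanned 5.51e-06 to 0.0522) in ASC_As300 against Control and 0.25 (unadjusted p = 0.0179) in ASC_As300 against ASC. The median of the 10 against Control fell to 0.16 in As300, 0.07 in ASC and 0.14 in ASC_As300. In ASC_As300 against ASC, where the GC-rich genes had a median of -0.01, the correction changed the median of the members only from 0.11 to 0.12.

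**Figure D3:**
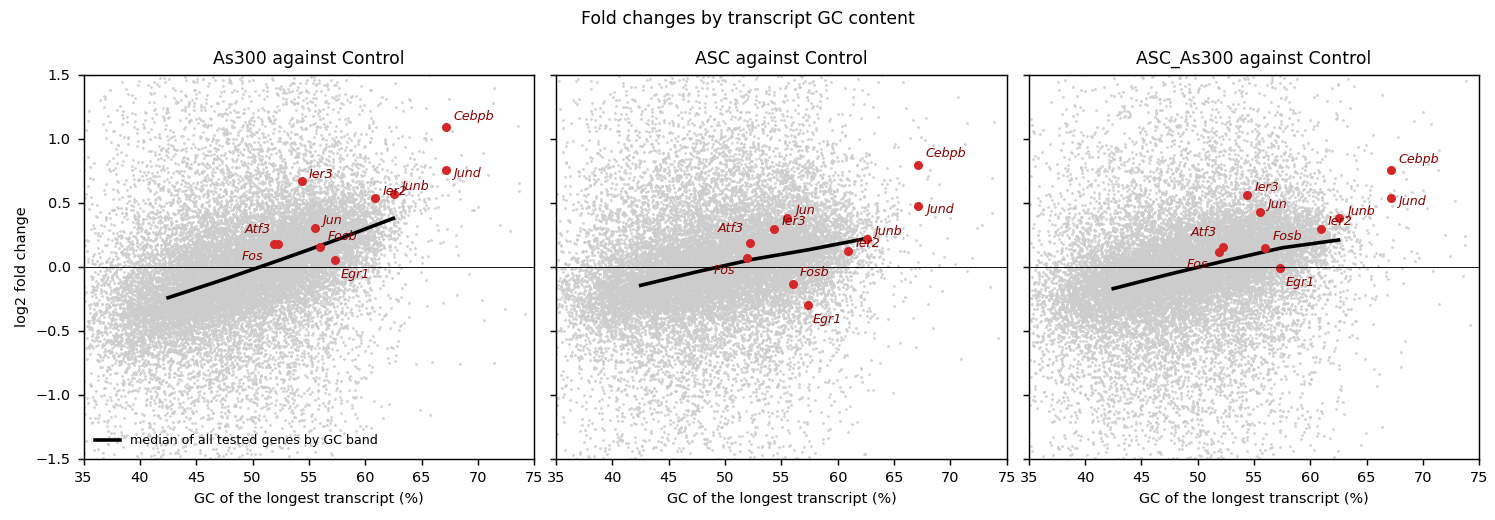
Log2 fold change against Control by the GC content of the longest transcript, for all tested genes (grey) and the 10 members (red). The black line joins the medians of 5 GC bands, the outer bands being under 45% and 60% or more, and genes beyond 1.5 on the vertical axis are not drawn. The line climbs from low to high GC in all 3 panels, Cebpb and Jund lie at its right end, and Ier3 lies above it at a middle GC.

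The tumors of a group also differed among themselves, and these deviations are free of the group differences that chose the genes. With the group means subtracted from log2 CPM, 2 of the 45 pairs of members passed over the 12 tumors by permutation. Fosb and Ier2 had r = 0.88 (permutation p = 6e-05, adjusted p = 0.0027 over 45 pairs), and Fos and Egr1, the classical pair of serum response targets, had r = 0.82 (permutation p = 0.00074, adjusted p = 0.0167). In ASC replicate 2, for example, Fos was at 20.6 CPM and Egr1 at 78.8, against 9.23 and 41.3 in ASC replicate 1. Free permutation over the 12 tumors treats all deviations as exchangeable, though the subtracted mean ties those of a group together, so these p are too small. Rearranging the tumors only within their groups avoids this but was chosen after seeing the data. It gave exact p of 0.00154 and 0.00772 and adjusted p of 0.0694 and 0.174, so neither pair passed. Ier3 and Cebpb did not deviate together within groups (r = -0.14, permutation p = 0.653).

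Over the 12 tumors with the group means left in, 43 of 45 pairs had a positive r and 11 passed, all positive. Fos and Egr1 had r = 0.78 (permutation p = 0.00288, adjusted p = 0.0191) and rho = 0.80 (permutation p = 0.00232, adjusted p = 0.0477), and r was 0.72 without the 2 tumors farthest from the median of Fos. Fosb and Ier2 had r = 0.70 (permutation p = 0.00994, adjusted p = 0.0407) and rho = 0.71 (permutation p = 0.0122, adjusted p = 0.0893), and r was 0.65 without such tumors. The other 9 passing pairs join Junb, Jund, Ier2, Ier3 and Cebpb, whose group differences are part of r and of the choice. No pair passed after the GC correction or without Control replicate 1.

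**Figure D4:**
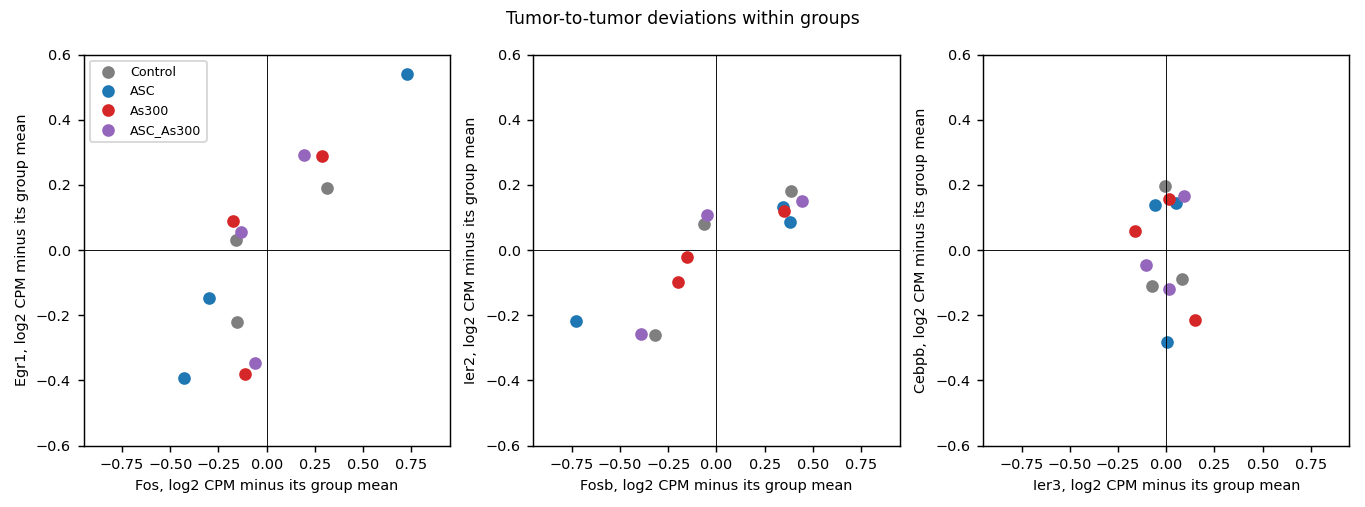
Deviation of each tumor from its group mean in log2 CPM for 3 pairs of genes, with 1 dot per tumor coloured by group. Fos with Egr1 (r = 0.82) and Fosb with Ier2 (r = 0.88) run from lower left to upper right, and Ier3 with Cebpb (r = -0.14) shows no slope.

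The genes around the members in their pathways were taken from gene lists. Of 13 other AP-1 family genes, all tested, edgeR called 1: Batf2, an interferon-induced basic leucine zipper partner of Jun proteins. It was at 1.9, 1.7 and 0.8 CPM in Control and 1.6, 0.9 and 2.0 in As300, against 13.1, 7.6 and 11.3 in ASC and 11.99, 12.5 and 15.8 in ASC_As300. The 6 tumors with ASC were thus far above the 6 without. Its log2 fold change was 2.86 in ASC (SE 0.37, edgeR adjusted p = 0.00189) and 3.19 in ASC_As300 (adjusted p = 0.000904) against Control, and 3.15 in ASC_As300 against As300 (adjusted p = 0.000863). The 3 calls held under each of the 20 alternatives run. In As300 against Control it was 0.04, and the Fos-related Fosl1 and Fosl2 had no call in any comparison. DESeq2 also called Batf3, a factor of dendritic cells, in ASC against Control (0.87, DESeq2 adjusted p = 0.0287), where edgeR gave an adjusted p of 0.148. T cell markers moved with Batf2 in most tumors, at 33.5 to 54.2 CPM in the tumors with ASC and 10.1 to 13.4 without, apart from Control replicate 1 at 60.5, and their part was not tested.

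None of 25 other immediate early genes was called in any comparison by edgeR, with list medians between 0.02 and 0.08. At an unadjusted p under 0.05 there were 10 in any comparison, and DESeq2 called 2, Klf2 in ASC_As300 and Ier5l in As300 against Control. The smallest p-values belonged to Rhob, a stress-induced small GTPase (log2 fold change 0.56 in ASC_As300 against Control, adjusted p = 0.0631), to Csrnp1, a nuclear early gene (0.47, adjusted p = 0.0973), and to Klf10, a TGF beta-induced repressor (-0.34, adjusted p = 0.1). Rhob and Csrnp1 had 0.44 each in ASC and 0.48 and 0.36 in As300.

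Upstream of the members, none of 8 SRF, ternary complex and CREB genes and none of 14 MAP kinase genes was called by edgeR, with 3 and 6 at an unadjusted p under 0.05. DESeq2 called Crem in the first list (0.70 in ASC_As300 against As300). In the second it called Mapk10 higher (1.485) and Map3k1 lower (-0.68) in As300 against Control, where edgeR gave adjusted p of 0.133 and 0.0518. Mapk10 was low, at a mean of 3.07 CPM in As300 and 1.11 in Control. In ASC_As300 against As300 it had -1.31 (edgeR adjusted p = 0.456), and the neural markers, also higher in As300, had a median of -1.08. Their part in Mapk10 was not tested. Crem, the cAMP-responsive modulator, had 0.73 in ASC_As300 against As300 (adjusted p = 0.139), and Creb1 and Mrtfa had -0.35 and 0.22 in ASC_As300 against Control (adjusted p = 0.241 and 0.312). The MAP kinase kinase genes Map2k2 and Map2k1 had 0.38 in ASC (adjusted p = 0.191) and 0.26 in ASC_As300 (adjusted p = 0.212) against Control. The ERK gene Mapk3 had -0.22 in ASC_As300 against As300 (adjusted p = 0.315). In As300 against Control, Mapk3 had 0.39 (edgeR adjusted p = 0.043) and Creb1 -0.54 (adjusted p = 0.048), both without overlap but under 1.5-fold. Map2k2 had 0.49 there (adjusted p = 0.0539), also without overlap. Of the 14 MAP kinase genes, 3 were higher without overlap in that comparison, where 14.5% of all genes were. Another 4 were lower without overlap, and the share of all genes lower in this way was not computed. These are mRNA levels, and kinase activity was not measured.

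Beside Cebpb, 5 of 6 other C/EBP family genes were tested (Cebpe was too low) and none was called by edgeR or DESeq2, with 3 at an unadjusted p under 0.05. Cebpd, the usual early partner of Cebpb, had 0.53 in ASC_As300 against Control (adjusted p = 0.252). Ddit3, the stress-induced inhibitory member, had -0.45 in ASC_As300 against As300 (adjusted p = 0.366), and Cebpz, a CCAAT-binding factor, had -0.28 in ASC_As300 against Control (adjusted p = 0.204).

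Downstream, edgeR called 3 of 14 AP-1 target genes, in both directions. DESeq2 called these and Spp1, the osteopontin gene, which was lower than Control in ASC (-0.79, DESeq2 adjusted p = 0.000101) and ASC_As300 (-0.63). It also called Mmp13 (0.94) and Itgax (0.89) higher and Mmp9 (-0.99) lower in ASC against Control, where edgeR gave adjusted p of 0.141, 0.0996 and 0.157. Mmp13, a collagenase, rose in ASC_As300 against Control (21.4, 23.1 and 19.5 CPM against 5.3, 7.7 and 11.2) with a log2 fold change of 1.41 (SE 0.27, edgeR adjusted p = 0.0262). Itgax, the CD11c integrin of myeloid cells, rose there too (1.13, SE 0.22, adjusted p = 0.0318). Mmp9, a gelatinase, fell in ASC_As300 against As300 (10.3, 11.3 and 9.3 CPM against 23.0, 21.3 and 44.2) by 1.52 on the log2 scale (SE 0.29, adjusted p = 0.0294), in a fold change that leaned on As300 replicate 3 and was -1.13 without it (adjusted p = 0.0828, while all alternatives spanned 3.94e-06 to 0.164). The Mmp13 and Itgax calls were each lost without any 1 of the ASC_As300 tumors or without Control replicate 2, that of Mmp13 also without Control replicate 1 and with the block (adjusted p = 0.0516, while all alternatives spanned 6.89e-06 to 0.102), and that of Itgax without Control replicate 3. The Mmp9 call was lost without any 1 of the ASC_As300 tumors. Against Control the list had medians of 0.11 in As300, 0.21 in ASC and 0.24 in ASC_As300. In As300, 11 of the 14 were higher than Control, 2 of them without overlap, where 14.5% of all genes were higher without overlap. These were Plaur (0.46, edgeR adjusted p = 0.045) and Timp1 (0.41, adjusted p = 0.0543), both under 1.5-fold.

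None of 14 C/EBP beta target genes was called by edgeR, with 7 at an unadjusted p under 0.05, and DESeq2 called Ccl2, Tnf and Il1b. Against Control, their median was 0.06 in As300, 0.43 in ASC and 0.25 in ASC_As300. Ccl2, a monocyte chemokine, had 0.61 in ASC (adjusted p = 0.102) and 0.58 in ASC_As300 (adjusted p = 0.114). The cytokine gene Tnf had 1.29 in ASC_As300 against Control (adjusted p = 0.171), and the acute phase gene Saa3 had 1.55 in ASC_As300 against As300 (adjusted p = 0.274). In As300 against Control, Tnf and Saa3 were at 0.12 and -0.12. There 8 of the 14 were higher, 1 of them without overlap, where 14.5% of all genes were higher without overlap. Another 2 were lower without overlap, and the share of all genes lower in this way was not computed. Whether the Cebpb level bears on these genes was not tested.

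None of 12 integrated stress response genes, which Atf4 drives and to which Atf3 is tied, was called by edgeR or DESeq2, with 4 at an unadjusted p under 0.05. Atf4 itself had -0.03 in As300 against Control at 286.7 against 292.1 CPM. Chac1, a glutathione-degrading enzyme, had -0.75 in ASC_As300 against As300 (adjusted p = 0.463), Atf5 had -0.25 (adjusted p = 0.48) and Ddit4, an inhibitor of mTOR, -0.34 (adjusted p = 0.526).

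Likeness over all 12 tumors was measured by Pearson's r of log2 CPM, as a description. Among the genes most like Cebpb were Epn1 (r = 0.94, 62.46% GC) and Tsc22d4 (0.92, 57.9% GC). Those most like Ier3 were Dnal4 (0.93), Atp6v0c (0.93) and Slc25a20 (0.92), with GC between 48.2% and 57.3%. For Fos they were Cnnm4 (0.85), Gm44116 (0.84) and Gm13341 (0.82). Gm44116 was near the floor, at -3.50 to -0.55 log2 CPM, and Gm13341 was low at 0.71 to 1.51, so counting error weighs on both. The tumors of a group share their treatment, so these values are not of independent points.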

How the data were processed

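Per the labels and the study's methods, RNA of 12 tumors was extracted from RNAlater, made into TruSeq Stranded mRNA libraries and sequenced paired-end on a NovaSeq. The submitters' processing notes name cutadapt 1.1.0, HISAT2 2.0, StringTie 1.3.4, edgeR and DESeq2. The study's methods describe StringTie and Ballgown for FPKM values. How the counts were made, with which strand setting, genome build and annotation, is not given in the sources used here. The deposited values are raw counts per Ensembl gene made by the authors, with 39157647 to 55168642 counts a tumor. Of 55401 genes, 55141 were named from GENCODE M21 (GRCm38), whose exon unions and longest transcripts gave lengths and GC content (99.9% of tested genes).

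Counts were scaled by TMM, filtered by expression (20818 genes kept) and fitted in R 4.3.3 with edgeR 4.0.16 (quasi-likelihood test, 4 groups, Benjamini-Hochberg adjustment over all genes); a call needed an adjusted p of 0.05 and a 1.5-fold change. Labels do not say that the 3 tumors of a group are from separate litters or days, so p-values measure the spread between these tumors. An exact two-sided permutation test of 3 against 3 tumors cannot go below 0.1. CPM are TMM-scaled, log2 CPM add a prior count of 2, and pairs were tested by 100000 permutations (two-sided). DESeq2 1.42.0 and a lowess correction for GC were among the alternatives. The scripts were tested on simulated data.

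The members, gene lists and tests were chosen with earlier results of these data known. All 10 members are named. Of each pathway list, the genes called in any comparison are named, or else the 3 with the smallest p over the tested comparisons. For Cebpb, Ier3 and Fos the 3 genes of highest r are named, apart from 1 that is not reported here. Genes named beside these were chosen after their values were seen: Fosl1, Fosl2 and Atf4 for their roles, Plaur and Timp1 for their As300 values, genes called by DESeq2 alone, called or absent markers, and Tmem189 and Prdx2, with Junos, as overlapping genes.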

Additional observations from a re-analysis of the deposited data

How the results depend on the processing

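The log2 fold changes of Cebpb and Ier3 against Control stayed positive under every alternative run. This is no independent check: the Control tumors took part in the choice of these genes. Every other tumor also lay above every Control tumor, so leaving out 1 could not be expected to turn the sign. Leaving out 1 tumor gave Cebpb 0.72 to 0.94 in ASC and 0.67 to 0.86 in ASC_As300. The calls were less stable than the values, with 3 tumors a group, and the parts of tumor spread and of depth in this were not tested.

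Against Control, 150 genes were called for ASC, 220 for As300 and 168 for ASC_As300. There were 0 in ASC_As300 against ASC and 178 in ASC_As300 against As300. DESeq2 called 450, 827, 373, 10 and 397. Leaving out 1 tumor gave 105 to 355, 0 to 399, 90 to 203, 0 to 1 and 95 to 277. With only the 6 tumors compared, the number was 89 in ASC and 1 in ASC_As300 against ASC. As300 gave 8 without a filter, 454 with 10 counts in every tumor, 460 with counts divided by 4, 0 after the GC correction and 593 with no minimum fold change.

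Members called were 1 in ASC and 1 in ASC_As300 against Control. Both fell to 0 after the GC correction and ranged from 0 to 1 when 1 tumor was left out. In ASC_As300 the 1 was Ier3 in place of Cebpb without Control replicate 3 or ASC_As300 replicate 3. The first was 0 with only the 6 tumors compared. The second was 2 (Cebpb and Ier3) with no minimum fold change and 0 with the replicate block. Among the calls of members and pathway genes, the block ended 1 other, that of Mmp13. Same-numbered tumors had a median r of 0.027 between their deviations, over 0.1 in 2 of 18 pairs. Other-numbered tumors had -0.014, over 0.1 in 6 of 36 pairs, and 3 of 12 tumors correlated best with their own number. Whether the numbers stand for a shared litter or day is not stated and was not tested.

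Some directions turned. After the GC correction Ier2 was at -0.066 in ASC against Control, Fosb at -0.037 and Egr1 at -0.17 in As300 against Control, and Jund (from -0.22) at 0.062 and Fosb at 0.037 in ASC_As300 against As300. Leaving out 1 tumor gave ranges in ASC_As300 against ASC of -0.057 to 0.12 for Jun, -0.051 to 0.29 for Jund and -0.18 to 0.030 for Cebpb, and of -0.036 to 0.28 for Jun in ASC_As300 against As300. Such ranges were computed for Jun, Junb, Jund, Ier2, Ier3 and Cebpb only. The turned values in ASC_As300 against ASC were, for ASC replicate 1, -0.057 (Jun) and -0.051 (Jund), for ASC replicate 2 -0.036 (Jund) and 0.023 (Cebpb), for ASC replicate 3 0.030 (Cebpb), and for ASC_As300 replicates 2 and 3 0.006 (Cebpb) and -0.033 (Jund). In ASC_As300 against As300, Jun also turned, to the -0.036 at the low end of its range. The cause was not tested.

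Of 45 pairs, 11 passed, against 0 after the GC correction, 2 with group means subtracted, 0 with exact permutation within groups, 4 by rank correlation and 0 to 14 with 1 tumor left out (0 without Control replicate 1, 5 without Control replicate 2).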
